A study of Canis lupus familiaris with 31 samples.

Results

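Within the 13 Miniature Schnauzers with an excess of blood triglycerides (HTG), whole blood RNA of the 7 dogs with severe HTG was compared with that of the 6 dogs with moderate HTG. The severe group held case 01 to case 07, whose fasting triglycerides were at or above 500 mg/dl, and the moderate group held case 08 to case 13, whose triglycerides were below it. The series holds 31 dogs in all, and the 18 control dogs with normal triglycerides stayed outside the comparison and are given only as background levels. All were client-owned purebred dogs older than 7 years that were sampled after a fast, had no known endocrine disease and received no treatment as part of the study. The labels put 5 males and 2 females in the severe group and 3 males and 3 females in the moderate group. Each dog gave 1 library of rRNA-depleted total RNA from blood, so differences between dogs include those of diet, weight and sex as well as those of triglycerides. In the study's description of the dogs, body condition score and dietary fat ran higher in the severe group. Among dogs with a known value, only the lowest severe and the highest moderate dog overlapped in dietary fat. The question was whether the blood transcriptome differed with the degree of HTG once all dogs compared had the disorder.

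Triglycerides travel in blood inside chylomicrons and very-low-density lipoproteins, and lipoprotein lipase on the vessel wall releases their fatty acids. Blood cells make little of this machinery, but they meet the particles and their remnants: monocytes and neutrophils take them up, platelets respond to them, and red cells exchange lipid with plasma. Whole blood RNA comes mainly from neutrophils, lymphocytes, monocytes, platelets and young red cells. In such bulk samples, fewer cells of a type and less RNA per cell cannot be told apart.

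No gene separated severe from moderate HTG after correction. Of 13888 genes tested with edgeR's quasi-likelihood test, 0 had an adjusted p at or below 0.05, which is 0% of the genes tested, and the adjusted p of every gene rounded to 1.00. At an unadjusted p under 0.05 there were 353 genes, or 2.54%. Of these, 164 were higher in severe HTG (1.18% of the genes tested) and 189 were lower (1.36%). DESeq2 gave 0 genes after adjustment and 603 of 23096 before it, and limma-voom gave 0 and 363. The values of the 2 groups failed to overlap for 1 gene with severe HTG above (0.0072%) and 1 with severe HTG below (0.0072%). The log2 fold change, severe minus moderate, was above 0 for 49.5% of the genes, and its median size regardless of sign was 0.11. For 11030 genes (79.4%) the 95% interval of the log2 fold change lay between −1 and 1, so a difference of more than double in either direction was outside the interval. For the other genes the interval passed that bound. Since no gene passed the test, every gene below is described by its values, and CPM values are counts scaled to a fixed library total after edgeR's TMM correction.

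No property of the libraries differed between the 2 groups past the test. Total counts ran from 17016045 to 24269376 in severe HTG and from 16363134 to 34312116 in moderate HTG. The log10 total, the share of counts in the 20 highest genes, the mean level of 388 small RNA rows and the mitochondrial share were tested (4 exact permutation tests), and the smallest p was 0.164, for the mitochondrial share (adjusted p = 0.657). The mean of the small RNA rows fell into a low side and a high side with a gap between them, and the high side held 3 severe and 2 moderate cases. In a principal component analysis of the 13 cases over their 500 most variable genes, the leading component (41.4% of the variance) was led by red cell genes such as AHSP, the chaperone of alpha-globin, and ALAS2, which starts heme synthesis. Its scores were 2.12 ± 18.50 (SD, n = 7) in severe and −2.47 ± 9.33 (SD, n = 6) in moderate HTG (exact permutation test, two-sided, p = 0.587). The 2 ends of this component were both severe cases, with case 01 at 24.71 and case 03 at −23.43. The second component, with 20.5% of the variance, was led by small RNA rows, with a severe minus moderate difference of 1.63 (exact permutation test, p = 0.788).

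**Figure D1:**
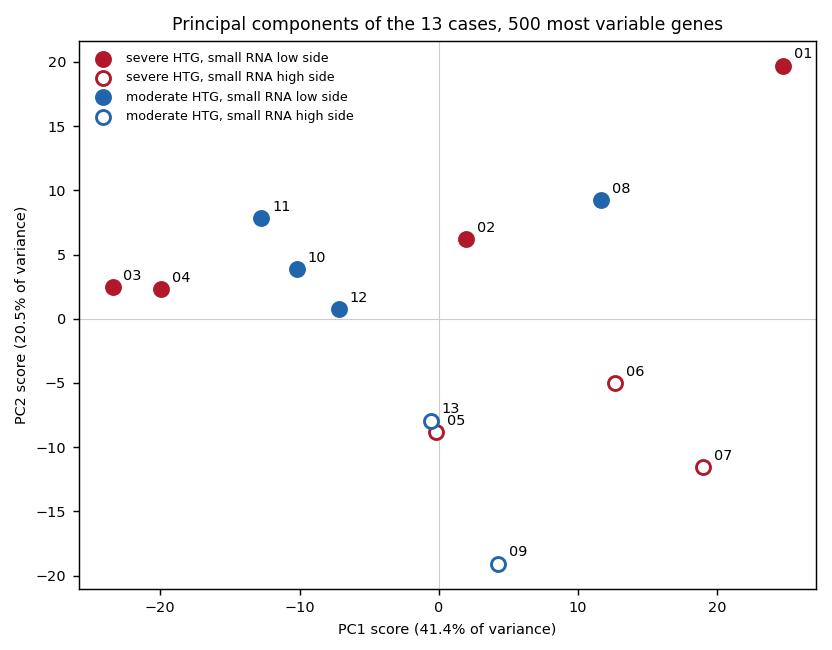
Scores of the 13 cases on the first (x axis, 41.4% of variance) and second (y axis, 20.5%) principal component, each point 1 dog marked with its case number, red for severe and blue for moderate HTG, open where the library lay on the high side of the small RNA split. Severe cases stand at both ends of the x axis and moderate cases between them, while the y axis separates open from filled points.

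The genes that lead the contrast of all cases with controls were next read across the degree of HTG. These 9 genes were chosen by the study on these same dogs, so their height over controls is not a result here, and only severe against moderate is compared. All 9 had a log2 fold change above 0, with a median of 0.10, against 49.5% above 0 among all genes. With dietary fat as a covariate, in the 10 dogs for which it was known, 3 of the 9 were above 0 (median −0.16), and on the high side of the small RNA split 5 of the 9 were (median 0.06). Dietary fat nearly followed the group in these 10 dogs. The fit with it can therefore hardly separate fat from severity, and its changes of sign, here and below, do not establish a reversal. Without case 09, a moderate case, the median was 0.35. In 8 of the 9 the median CPM was higher in severe than in moderate HTG, and 1 of the 9 (FZD7) had an unadjusted p under 0.05. However, in 6 of the 9 the single highest case was a moderate one. It was case 09 for ARHGAP29, ARHGAP21, MMRN1, ST6GALNAC4 and STON2. For SLPI it was case 11, at 2.00 log2 CPM against 1.99 in case 01.

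FZD7, a Frizzled receptor of the Wnt pathway, ran from 3.34 to 8.06 CPM with a median of 5.19 in severe HTG and from 1.98 to 4.67 with a median of 3.02 in moderate HTG. Of the 7 severe cases, 4 were above every moderate case, and the log2 fold change was 0.68 (SE 0.26). In controls FZD7 ran from 1.26 to 4.96 CPM with a median of 2.42. Its difference was 1.11 among dogs on the low side of the small RNA split, 0.06 on the high side and −0.16 with dietary fat as a covariate. RTN4, which encodes the Nogo proteins of the endoplasmic reticulum, was at 55.6 to 65.7 CPM (median 62.9) in severe and 54.0 to 60.8 (median 57.3) in moderate HTG. The RTN4 difference was small, at 0.10 (SE 0.07), although 4 of 7 severe cases were above every moderate case. ARHGAP29, a GTPase-activating protein, spanned 1.73 to 14.1 CPM (median 4.72) in severe and 0.286 to 18.4 (median 4.13) in moderate HTG, and the 2 groups overlapped throughout. The highest ARHGAP29 value, 18.4 CPM, was in case 09, a moderate case. Case 09 also had the highest level of MMRN1, the platelet and endothelial protein multimerin-1, at 96.4 CPM, where the severe cases reached 61.2. Without case 09 the difference went from 0.09 to 0.91 for ARHGAP29, from 0.05 to 0.50 for MMRN1 and from 0.08 to 0.28 for STON2, and with dietary fat as a covariate the 3 were −0.96, −0.44 and −0.56. ARHGAP21, STON2 and ST6GALNAC4 had differences of 0.19 (SE 0.17), 0.08 (SE 0.22) and 0.08 (SE 0.20). SLPI, a secreted inhibitor of neutrophil proteases, and CHST9, a carbohydrate sulfotransferase, were low and wide, at 0.12 (SE 0.65) and 0.37 (SE 0.46).

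**Figure D2:**
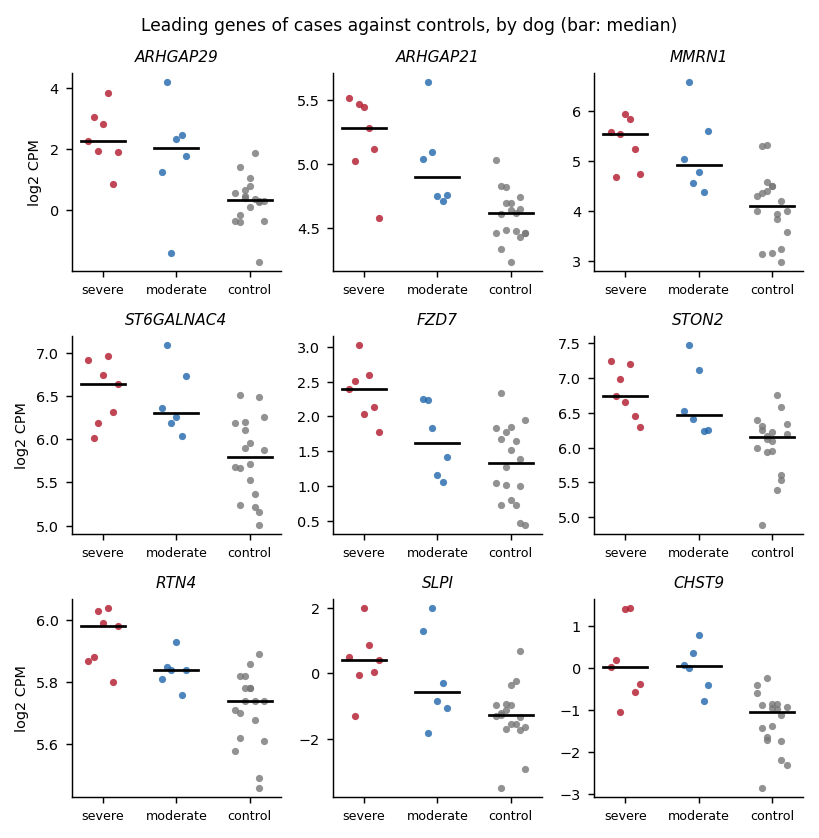
Level (y axis, log2 CPM) of the 9 leading genes of cases against controls in the 7 severe, 6 moderate and 18 control dogs (x axis), each point 1 dog and the bar the group median. FZD7 and RTN4 have 4 of 7 severe cases above every moderate case, and ARHGAP29 and MMRN1 have their highest dog among the moderate cases.

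The same held for the longer lists that the study drew from these dogs, which are likewise no independent evidence of direction. Of 73 tested genes listed as higher in cases, 57 had a log2 fold change above 0, with a median of 0.09. That direction turned with dietary fat as a covariate, where 20 of 73 were above 0 (median −0.26), and on the high side of the small RNA split, where 24 of 73 were (median −0.08), while without case 09 the median was 0.28. CISH, FZD7 and CLCN3 made up the 3 members higher at an unadjusted p under 0.05, against 1.18% of all genes. Of 14 tested genes listed as lower in cases, 10 had a log2 fold change below 0, with a median of −0.04, and 0 had an unadjusted p under 0.05 in edgeR. PHF14, a chromatin reader, was the first of these by p, at 36.1 to 43.9 CPM in severe, 39.2 to 49.3 in moderate and 42.4 to 51.1 in control dogs.

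Platelet genes had list medians close to 0, and their directions turned between settings. Among platelet receptors and signalling proteins 14 of 21 were above 0 (median log2 fold change 0.06), among granule cargo 13 of 16 (median 0.07), and among megakaryocyte factors and cytoskeletal genes 11 of 19 (median 0.02). Of these, PDGFB alone had an unadjusted p under 0.05. PDGFB, a growth factor stored in alpha granules, was at 4.36 to 13.9 CPM (median 9.39) in severe and 3.49 to 8.39 (median 6.66) in moderate HTG, a difference of 0.58 (SE 0.27). In severe HTG 5 of 7 dogs were above every moderate case. PPBP, a chemokine of the alpha granule, ran from 1508.1 to 3079.3 CPM (median 2111.3) in severe and from 518.6 to 2137.2 (median 1648.4) in moderate HTG, at 0.53 (SE 0.28). ALOX12, the platelet lipoxygenase, differed by 0.59 (SE 0.38), and P2RY12, an ADP receptor, by −0.24 (SE 0.20). The summed level of 11 platelet marker genes was 2426.1 to 4593.5 CPM in severe and 1123.7 to 4162.8 in moderate HTG. The lowest dog was case 12 and the highest case 06. With case 09 left out, the medians of the receptor, granule cargo and megakaryocyte lists became 0.22, 0.24 and 0.17. Dietary fat as a covariate can hardly be separated from the group. With it, all 3 medians turned, to −0.29 (2 of 21 above 0), −0.31 (5 of 16) and −0.22 (5 of 19). They also turned on the high side of the small RNA split, to −0.10 (3 of 21), −0.06 (7 of 16) and −0.06 (5 of 19). The ALOX12 difference was 0.91 without case 09. The PPBP difference was 0.35 without case 12 and 0.01 with dietary fat as a covariate.

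Red cell and heme genes had the largest median log2 fold change of the 34 gene lists. When case 01 was left out it was 0.18, below the 0.27 of the eosinophil and basophil list. All 27 tested genes of red cells and heme synthesis had a log2 fold change above 0, with a median of 0.59 and a range of 0.13 to 1.23. At an unadjusted p under 0.05, edgeR gave 0 of them. KLF1, the transcription factor that drives red cell genes, ran from 10.3 to 327.7 CPM with a median of 53.4 in severe HTG and from 20.9 to 76.1 with a median of 26.3 in moderate HTG. The lowest 2 dogs and the highest 2 dogs for KLF1 were all severe cases, and its difference was 1.23 (SE 0.71). UROD, which makes the heme precursor coproporphyrinogen, spanned 24.2 to 311.6 CPM in severe and 38.8 to 127.2 in moderate HTG, at 0.92 (SE 0.51). ALAD, an earlier enzyme of heme synthesis, was at 6.98 to 27.6 CPM (median 18.4) in severe and 7.10 to 13.1 (median 10.9) in moderate HTG, and 4 of 7 severe cases were above every moderate case. GYPC, a glycophorin of the red cell membrane, also had 4 of 7 severe cases above every moderate case, at 0.65 (SE 0.34).

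Averaged over the list on the log2 scale and centred on the 13 cases, red cell genes stood at 1.79 in case 01, at −1.02 in case 03 and at −1.30 in case 04, and moderate cases lay between −0.56 and 0.69. The SD over dogs was 1.08 in severe and 0.47 in moderate HTG. Without case 01, the dog with the highest triglycerides, 24 of 27 genes stayed above 0 and the median was 0.18. Without that dog the differences of KLF1 and UROD were 0.23 and 0.43. Without case 03 the median was 0.72 and 3 genes had an unadjusted p under 0.05. With dietary fat as a covariate, in the 10 dogs for which it was known, it was 1.54 and 14 of 27 genes were higher at an unadjusted p under 0.05. The sum of 11 erythroid marker genes was 952.9 to 18353.2 CPM (median 6643.5) in severe and 2490.1 to 7878.1 (median 3000.1) in moderate HTG. In control dogs it was 718.2 to 27080.4 (median 1571.5), so the severe sums stayed within the control range while their median was above the control median. For KLF1 alone, case 01 was above every control, at 8.36 log2 CPM against 7.94 in control 03 and 5.76 in control 06, the next.

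**Figure D3:**
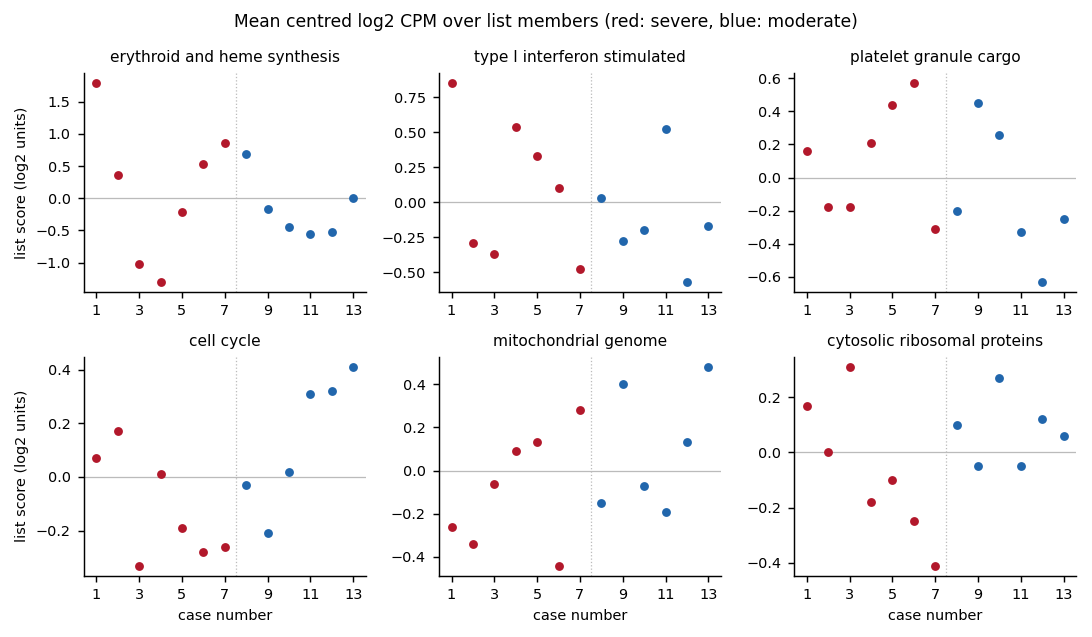
Mean log2 CPM over the members of 6 gene lists, centred on the 13 cases (y axis), against case number (x axis, case 01 with the highest triglycerides), red for severe and blue for moderate HTG. The red cell score runs from −1.30 to 1.79 among severe cases, the cell cycle score is highest in the moderate cases 11, 12 and 13, and no list has groups that do not overlap.

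Within the lymphocyte lists, the 4 genes higher at an unadjusted p under 0.05 were genes of cytotoxic cells. The joint list of T cell and cytotoxic genes had 11 of 29 genes above 0 and a median of −0.07, and 4 of the 29 were higher in severe HTG at an unadjusted p under 0.05, against 1.18% of all genes. With dietary fat as a covariate that count was 0 (edgeR), and on the high side of the small RNA split 1 gene was higher and 4 were lower. TBX21, the T-bet factor of type 1 lymphocytes and natural killer cells, ran from 27.6 to 115.9 CPM with a median of 56.3 in severe HTG and from 17.2 to 44.7 with a median of 33.2 in moderate HTG. In 5 of 7 severe cases TBX21 was above every moderate case, and the difference was 0.97 (SE 0.32, 95% interval 0.30 to 1.65). GZMB, the protease granzyme B of killing granules, reached 65.6 CPM (median 40.4) in severe and 38.8 (median 22.1) in moderate HTG, and 4 of 7 severe cases were above every moderate case, at 0.80 (SE 0.30). KLRB1 and KLRD1, lectin-like receptors of natural killer cells, differed by 1.10 (SE 0.46) and 0.76 (SE 0.33). Case 05 was the highest case for all 4 genes, with 18.3 CPM of KLRB1 where the other severe cases were at 8.43 or below. Without case 05 the differences of KLRB1 and KLRD1 were 0.59 and 0.48. Case 03 and case 07 had the lowest TBX21 levels of the severe group and lay within the moderate range.

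In controls TBX21 ran from 4.42 to 98.7 CPM and GZMB from 5.88 to 93.7, which covers the moderate cases and most of the severe range. The sum of 7 natural killer and cytotoxic markers was 44.3 to 178.4 CPM in severe and 45.0 to 94.6 in moderate HTG, while the sum of 10 T cell markers was 388.4 to 1112.6 and 591.3 to 928.6 CPM. On the low and high sides of the small RNA split, the TBX21 difference was 0.64 and 1.54. TRBV16, a variable segment of the T cell receptor beta chain whose reads may be shared with related segments, was at 4.50 to 22.7 CPM in severe and 4.58 to 8.61 in moderate HTG, with 5 of 7 severe cases above every moderate case.

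B cell and plasma cell genes had 5 of 17 above 0 (median −0.08), and class II antigen presentation genes 1 of 10 (median −0.11), with 0 members of either list at an unadjusted p under 0.05 in edgeR. Without case 08, 4 of the 17 B cell and plasma cell genes were lower at that threshold, as were 4 on the high side of the small RNA split, where 2 class II genes were lower too. On the low side 7 of 10 class II genes were above 0 (median 0.10). POU2AF1, a B cell coactivator, differed by −0.43 (SE 0.20), and CD74, the invariant chain of class II molecules, by −0.19 (SE 0.16). The sum of 8 B cell markers ran from 216.6 to 327.5 CPM in severe and from 195.9 to 329.2 in moderate HTG.

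Myeloid genes overlapped broadly. Neutrophil surface and signalling genes had 10 of 15 above 0 (median 0.07), neutrophil granule genes 7 of 16 (median −0.01) and monocyte genes 3 of 12 (median −0.07). On the low side of the small RNA split 1 of 15 neutrophil surface genes was above 0 (median −0.16), and on the high side 13 were (median 0.41), 4 of them at an unadjusted p under 0.05. Granule genes above 0 numbered 2 of 16 (median −0.21) without case 01, 10 (median 0.11) without case 03 and 12 (median 0.47) with dietary fat as a covariate. The directions of both neutrophil lists therefore turned with these settings. LCN2, an iron-binding protein of neutrophil granules, was at 1.40 to 10.2 CPM (median 2.21) in severe and 1.01 to 27.7 (median 11.2) in moderate HTG, a difference of −1.81 (SE 0.63). Of the severe cases, 6 of 7 were at or below 2.51 CPM and case 03 was at 10.2. On the low side of the small RNA split the LCN2 difference was −0.68 and on the high side −3.63. Another granule protein, the peroxidase MPO, differed by −0.53 (SE 0.75), and without case 11 its difference was 0.76. The sum of 7 neutrophil markers ran from 4841.0 to 8882.4 CPM in severe and from 5615.1 to 8301.4 in moderate HTG, that of 7 immature granulocyte markers from 526.1 to 2596.4 and from 477.4 to 4518.1, and that of 7 monocyte markers from 1158.2 to 1624.2 and from 1147.2 to 1827.0.

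Eosinophil and basophil genes had 9 of 13 above 0, with a median of 0.22 that ran from 0.07 with sex to 0.57 with dietary fat as a covariate. ALOX15, a lipoxygenase abundant in eosinophils and also made by maturing red cells, had 117.5 to 8924.6 CPM (median 1629.8) in severe and 179.5 to 1027.7 (median 718.6) in moderate HTG. In 4 of 7 severe cases, led by case 01, ALOX15 was above every moderate case, and the difference of 1.77 (SE 0.77) became 0.90 without case 01 and 0.68 with the erythroid marker score as a covariate. CCR3, the eotaxin receptor, and IL5RA, the interleukin 5 receptor chain, were highest in case 07, at 69.6 and 56.0 CPM, and differed by 0.74 (SE 0.49) and 0.55 (SE 0.36). Case 01 was among the lowest dogs for both. Without case 07 these differences were 0.17 and 0.22, and on the low side of the small RNA split that of CCR3 was −0.30. IL3RA, the interleukin 3 receptor chain, stood the other way, at 0.199 to 1.80 CPM in severe and 0.533 to 5.23 in moderate HTG, with a difference of −1.24 (SE 0.51) that was −0.82 without case 13. The sum of the 3 eosinophil markers found in the table, most of it ALOX15, was 148.9 to 8941.9 CPM in severe and 225.9 to 1051.5 in moderate HTG. The sum of 6 basophil markers was 11.4 to 38.1 CPM in severe and 15.6 to 38.8 in moderate HTG.

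Interferon genes had log2 fold changes mostly above 0, and none passed the test. Among type I interferon-stimulated genes 29 of 31 were above 0 with a median of 0.26, and edgeR gave 0 of 31 at an unadjusted p under 0.05. RSAD2, which encodes the antiviral enzyme viperin, was at 33.2 to 1169.9 CPM (median 134.9) in severe and 68.2 to 285.2 (median 84.8) in moderate HTG. Case 01 alone was above every moderate case, and the RSAD2 difference of 1.20 (SE 0.68) was 0.09 without that dog. OAS1, a sensor of double-stranded RNA, differed by 0.64 (SE 0.37), and by 0.29 without case 01. With the erythroid marker score as a covariate the RSAD2 and OAS1 differences were 0.36 and 0.41. Without case 01 the list's median was 0.11 and 26 of 30 genes were above 0. With dietary fat as a covariate it was 0.63, and 5 genes were higher at an unadjusted p under 0.05, as were 5 on the high side of the small RNA split.

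Of 16 Toll-like receptor pathway genes, 10 were above 0 (median 0.14) and 2 were higher at an unadjusted p under 0.05, against 1.18% of all genes. TLR9, the endosomal receptor of unmethylated DNA, was at 9.65 to 17.9 CPM (median 11.2) in severe and 7.38 to 9.98 (median 8.83) in moderate HTG. In 6 of 7 severe cases TLR9 was above every moderate case, with a difference of 0.48 (SE 0.15). That difference was 0.29 on the low side of the small RNA split and 0.78 with dietary fat as a covariate. For the list, 0 genes were higher at an unadjusted p under 0.05 on the low side (edgeR, median 0.04) and 3 on the high side (median 0.17). TRAF6, the ubiquitin ligase that carries Toll-like receptor signals onward, was at 40.7 to 48.0 CPM in severe and 37.8 to 41.8 in moderate HTG, a small difference of 0.15 (SE 0.07) with 6 of 7 severe cases above every moderate case. Control dogs overlapped both groups, at 6.68 to 16.0 CPM for TLR9 and 27.8 to 49.1 for TRAF6.

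NF-kB and cytokine genes had 12 of 17 above 0 (median 0.06), inflammasome and interleukin 1 genes 5 of 15 (median −0.09), complement genes 6 of 11 (median 0.05) and endothelial genes 6 of 9 (median 0.06). The NF-kB median was −0.01 (8 of 17 above 0) without case 01, 0.19 (15 of 17) without case 08 and 0.39 (15 of 17) with dietary fat as a covariate. Complement genes turned to a median of −0.09 without case 01. With dietary fat as a covariate the endothelial median turned to −0.34 (3 of 9) and the inflammasome median was −0.33. IL1B, the cytokine interleukin 1 beta, was at 8.13 to 21.2 CPM in severe and 12.3 to 22.9 in moderate HTG, at −0.28 (SE 0.22), which was −0.13 without case 08. ICAM1, an adhesion molecule, differed by 0.79 (SE 0.38). C3AR1, the receptor of the complement fragment C3a, differed by 0.36 (SE 0.24). PLVAP, a protein of endothelial diaphragms, was below 1 CPM in every case, at 0.341 to 0.798 in severe and 0.103 to 0.591 in moderate HTG. Of the endothelial markers 1 of 7 (EMCN) had no count in any case, and the sum of the 7 was 48.1 to 114.4 CPM in severe and 46.4 to 101.6 in moderate HTG.

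**Figure D4:**
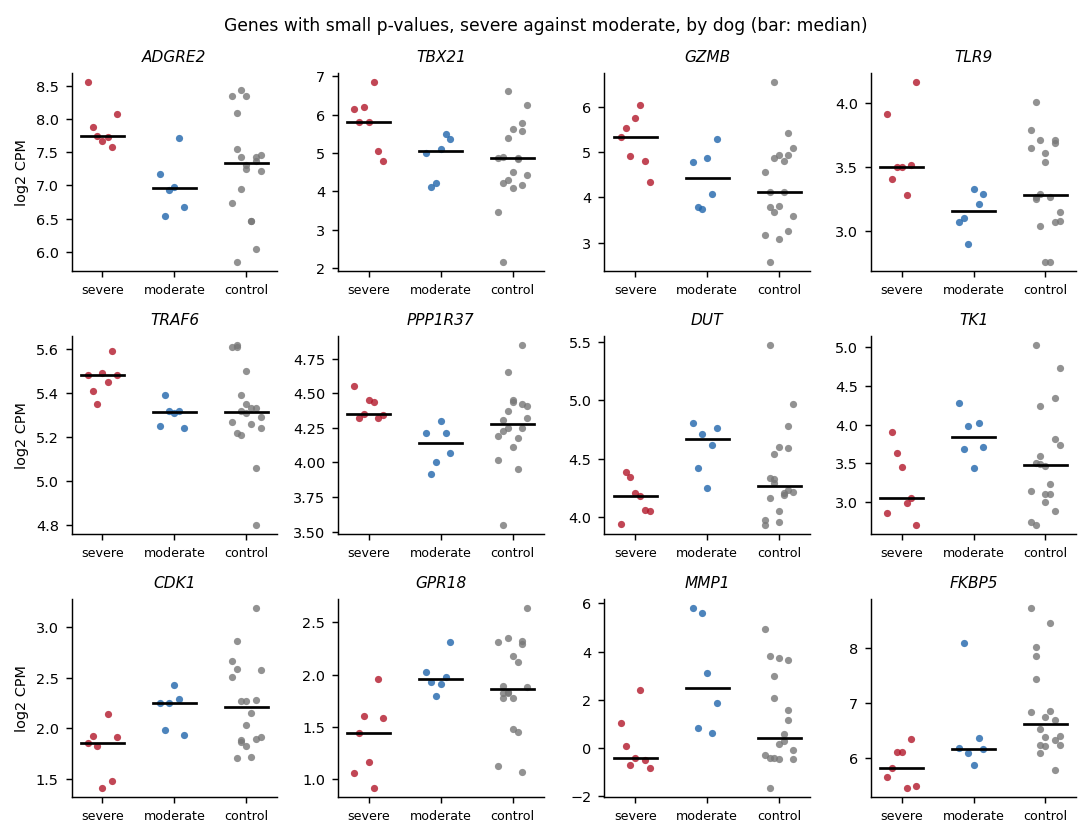
Level (y axis, log2 CPM) of 12 genes with small unadjusted p-values in the 7 severe, 6 moderate and 18 control dogs (x axis), each point 1 dog and the bar the group median. PPP1R37 is the gene whose severe and moderate cases do not overlap, and controls overlap both groups for all 12 genes.

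Of 28 cell cycle genes 0 passed the test, and the scores of the 2 groups overlapped. In all, 27 of the 28 had a log2 fold change below 0, with a median of −0.24, and 4 had an unadjusted p under 0.05 in that direction, against 1.36% of all genes. CDK1, the kinase that starts mitosis, was at 2.57 to 4.33 CPM (median 3.52) in severe and 3.73 to 5.32 (median 4.67) in moderate HTG, with 6 of 7 severe cases below every moderate case. The CDK1 difference was −0.40 (SE 0.16). MKI67, the proliferation antigen Ki-67, was at 84.8 to 160.5 CPM in severe and 111.4 to 244.0 in moderate HTG, at −0.47 (SE 0.20). It was highest in cases 12 and 13, at 235.0 and 244.0 CPM. The plasma cell genes MZB1, a chaperone of antibody assembly, and IRF4, a transcription factor, were also highest in these 2 cases. MZB1 was at 43.1 and 28.2 CPM there and at 21.6 or below in the other cases. The severe minus moderate difference was −0.53 (SE 0.36) for MZB1 and −0.42 (SE 0.23) for IRF4, and without case 12 they were −0.21 and −0.28. The B cell and plasma cell list as a whole was highest in case 13 and lowest in case 08, and the part of these cells in the cell cycle values was not tested. CCNE1, a cyclin of entry into S phase, and BUB1, a spindle checkpoint kinase, differed by −0.68 (SE 0.30) and −0.30 (SE 0.14). The cell cycle score ran from −0.33 to 0.17 in severe and from −0.21 to 0.41 in moderate HTG, and the moderate cases 11, 12 and 13 were the highest dogs. Without case 01 the list's median was −0.31 with 1 gene at an unadjusted p under 0.05, and without case 03 it was −0.23 with 0 (edgeR). Without case 08, 8 genes were lower at that threshold (median −0.27), as were 8 on the high side of the small RNA split (median −0.30) and 5 with the split as a covariate. With dietary fat as a covariate the count was 0, and 8 of 28 genes were above 0 (edgeR).

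Another 5 genes were named for small p-values, are on no list and add no support to the counts of the cell cycle list. DUT, the gene second by p among all tested, which removes dUTP and supplies the precursor of thymidine nucleotides, was at 15.2 to 20.8 CPM (median 18.0) in severe and 19.0 to 28.0 (median 25.3) in moderate HTG. In 5 of 7 severe cases it was below every moderate case, with a difference of −0.44 (SE 0.11, 95% interval −0.67 to −0.21). TK1, thymidine kinase of dividing cells, was at 6.47 to 14.8 CPM (median 8.17) in severe and 10.8 to 19.3 (median 14.4) in moderate HTG, at −0.60 (SE 0.20). KNSTRN, a kinetochore protein, and KIF23, a motor of cytokinesis, differed by −0.58 (SE 0.18) and −0.53 (SE 0.18), and HIST1H2BJ, one of a family of near-identical histone genes whose reads may be shared, by −1.12 (SE 0.38), or −0.56 without case 12. Controls had a median of 19.0 CPM for DUT and 11.1 for TK1, between the medians of the 2 case groups.

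Genes of protein synthesis, protein breakdown and respiration had list medians within 0.21 of 0. Of 52 cytosolic ribosomal protein genes, 51 were below 0 with a median of −0.12, and all 13 tested genes of the mitochondrial genome were below 0 with a median of −0.21. For both lists edgeR gave 0 genes at an unadjusted p under 0.05. Without case 03, 13 of the 52 ribosomal protein genes were lower at that threshold (median −0.20), and on the high side of the small RNA split 8 of 52 ribosomal and 4 of 13 mitochondrial genes were. On the low side 19 of the 52 ribosomal protein genes were above 0. RPL8, of the large ribosomal subunit, was at 596.0 to 997.0 CPM in severe and 722.3 to 1021.8 in moderate HTG, and MT-ATP8, an ATP synthase subunit, at 35.6 to 64.4 and 44.4 to 78.0 CPM. The mitochondrial median was −0.07 on the low side of the small RNA split and −0.44 on the high side, and the ribosomal median −0.04 and −0.23. Nuclear genes of the respiratory chain had 14 of 35 above 0 (median −0.04, range −0.25 to 0.73) and proteasome genes 13 of 32 (median −0.02, range −0.15 to 0.44). NDUFS3, a complex I subunit, differed by 0.73 (SE 0.46), and PSMD8, of the proteasome's lid, by 0.44 (SE 0.43). Without case 01 these were 0.44 and 0.23, and with the erythroid marker score as a covariate 0.17 and −0.05, the latter turned in sign.

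Heat shock and unfolded protein genes had 6 of 19 above 0 (median −0.14), with 2 higher and 1 lower at an unadjusted p under 0.05, against 1.18% and 1.36% of all genes. Lower genes numbered 4 without case 03 and 5 on the high side of the small RNA split. DNAJB4, a co-chaperone, was at 5.72 to 16.9 CPM (median 7.14) in severe and 4.60 to 6.44 (median 5.32) in moderate HTG, with 6 of 7 severe cases above every moderate case. ATF4, the transcription factor of the integrated stress response, differed by 0.42 (SE 0.19), and the chaperone HSPA8 by −0.36 (SE 0.16). Case 01 was the highest case for DNAJB4 and ATF4, and without it their differences were 0.41 and 0.22.

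Genes that handle lipid showed little shift as groups. Cholesterol synthesis and LDL uptake had 14 of 22 above 0 (median 0.03), fatty acid synthesis and storage 14 of 22 (median 0.06), fatty acid oxidation 19 of 30 (median 0.05), and the LXR pathway, which senses oxysterols and drives cholesterol efflux, 9 of 19 (median −0.02). Without case 01 the median of the fatty acid synthesis and storage list turned to −0.02 (10 of 22 above 0). Without case 08 that of the cholesterol list turned to −0.02 (11 of 22). Of 25 genes of the lipoprotein lipase system and remnant uptake, 10 had enough counts in blood to be tested, and 8 of those were above 0 (median 0.09). VLDLR, a receptor of triglyceride-rich particles, was at 2.14 to 15.9 CPM (median 3.43) in severe and 1.11 to 5.62 (median 3.87) in moderate HTG. The highest VLDLR value, in case 07, stood alone, and the difference of 0.54 (SE 0.47) was −0.08 without that dog. LMF1, which matures lipases, differed by 0.15 (SE 0.11).

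LSS, the lanosterol synthase of cholesterol synthesis, was at 2.98 to 9.21 CPM (median 4.72) in severe and 1.83 to 3.67 (median 3.03) in moderate HTG, a difference of 0.80 (SE 0.27). In 4 of 7 severe cases LSS was above every moderate case, and it was the one gene of its list at an unadjusted p under 0.05. SOAT1, which esterifies cholesterol for storage, was at 11.0 to 20.6 CPM in severe and 14.8 to 22.1 in moderate HTG, at −0.32 (SE 0.15), with 5 of 7 severe cases below every moderate case. FASN, the fatty acid synthase, differed by −0.24 (SE 0.19). PLIN5, a lipid droplet coat protein, and PDK4, a kinase that spares glucose when fat is burned, were low in blood, with medians of 0.681 and 1.00 CPM in severe and 0.486 and 0.342 in moderate HTG. UCP2, a mitochondrial carrier, and ACSL1, which activates long-chain fatty acids, differed by 1.12 (SE 0.63) and 0.70 (SE 0.43). UCP2 reached 6072.3 CPM in case 01, where the moderate cases ended at 1264.0, and its difference was 0.09 without that dog and 0.05 with the erythroid marker score as a covariate. The ACSL1 difference was 0.32 and 0.12 under the same changes.

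Insulin and glucose genes had 13 of 24 above 0 (median 0.02), and the median was 0.21 with dietary fat as a covariate. FOXO3, a transcription factor restrained by insulin signalling, was at 106.1 to 569.8 CPM in severe and 134.1 to 251.3 in moderate HTG, at 0.50 (SE 0.34). Without case 01 the FOXO3 difference was 0.12, and with the erythroid marker score as a covariate 0.09. Of 18 genes of CISH and SOCS feedback, which damp cytokine signals, 13 were above 0 (median 0.03). CISH was at 47.5 to 130.2 CPM (median 66.5) in severe and 45.8 to 57.6 (median 50.5) in moderate HTG, with 5 of 7 severe cases above every moderate case and case 01 the highest. Its difference was 0.52 (SE 0.19), or 0.33 without case 01, and in controls it ran from 21.7 to 78.5 CPM. Glucocorticoid-responsive and clock genes had 12 of 23 above 0 (median 0.00). CRY2, a repressor of the circadian clock, was at 9.51 to 14.7 CPM (median 12.3) in severe and 7.39 to 11.3 (median 9.01) in moderate HTG, with 6 of 7 severe cases above every moderate case. FKBP5, a chaperone induced by glucocorticoids, differed by −0.83 (SE 0.33). The FKBP5 value of case 09, 272.5 CPM, lay far above the other moderate cases, which ended at 82.8, and the difference was −0.26 without case 09 and −0.04 on the low side of the small RNA split, to which that dog does not belong.

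**Figure D5:**
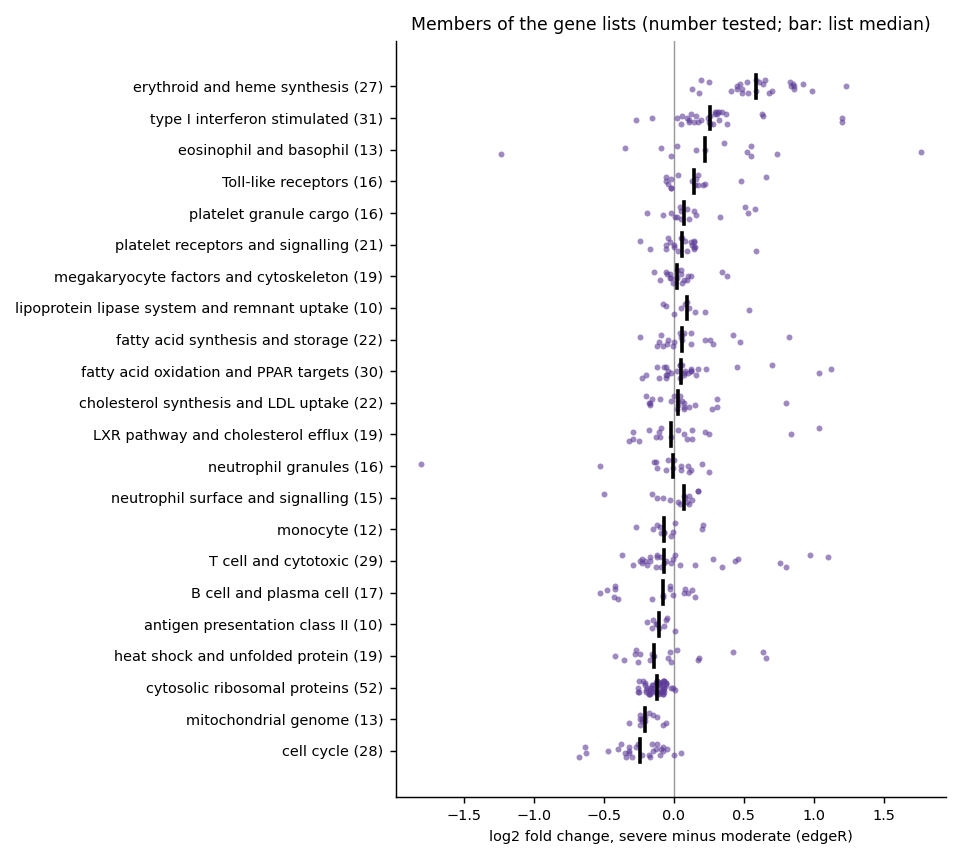
Log2 fold change, severe minus moderate (x axis), of each tested member of 22 gene lists (y axis, number tested in brackets), each point 1 gene and the bar the list median. Red cell genes lie to the right with a median of 0.59, cell cycle genes to the left with a median of −0.24, and the platelet and lipid lists near 0.

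Beyond the lists, the gene with the smallest p was ADGRE2, an adhesion receptor of neutrophils and monocytes. ADGRE2 was at 191.8 to 378.4 CPM (median 215.2) in severe and 92.9 to 210.9 (median 124.0) in moderate HTG, and 5 of 7 severe cases were above every moderate case. The difference was 0.87 (SE 0.20, 95% interval 0.44 to 1.30), and controls ran from 57.7 to 346.1 CPM. Of the moderate cases, case 12 at 210.9 CPM reached into the severe range. PPP1R37, a regulatory subunit of protein phosphatase 1, was the one gene with a symbol whose groups did not overlap. Its values were 19.9 to 23.3 CPM in severe and 15.0 to 19.7 in moderate HTG, a difference of 0.27 (SE 0.09).

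Several of the other genes highest in severe HTG by p were scarce in blood. MIR29B1, a row for the miR-29b precursor, and CCIN, a protein of the sperm head, had medians of 0.954 and 1.52 CPM in severe and 0.415 and 0.758 in moderate HTG, each with 6 of 7 severe cases above every moderate case. JAG2, a Notch ligand, had 0 to 39 counts a library, and GADD45G, a stress-induced growth arrest gene, and PDZK1IP1, a small membrane protein, had 1 severe case below every moderate case. MIR29B1 was not tested without case 01, case 03 or case 05, and JAG2 was not without case 01 or case 05. Both were tested without case 08, 09, 12 or 13. They passed the filter on low counts through severe cases, so their direction adds no support. PRICKLE1, of planar cell polarity, was at 2.59 to 7.91 CPM in severe and 0.952 to 3.77 in moderate HTG, with 5 of 7 severe cases above every moderate case. RUNDC3B, the organic anion transporter SLC22A11, and KAZN had differences of 1.42 (SE 0.42), 1.16 (SE 0.35) and 1.64 (SE 0.53). LACTB2, a mitochondrial ribonuclease, had a small difference, at 44.2 to 55.5 CPM in severe and 37.6 to 47.0 in moderate HTG. FAM107A, an actin-associated protein, and DNAH11, an axonemal dynein, were each above every moderate case in 6 of 7 severe cases and below every moderate case in case 03. The FAM107A levels were 9.86 CPM in case 03, 33.0 to 53.4 in the other severe cases and 11.4 to 27.1 in moderate HTG.

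Among genes lower in severe HTG by p, MMP1, the interstitial collagenase, had the widest difference, at −3.71 (SE 0.93, 95% interval −5.70 to −1.72). It was at 0.477 to 5.28 CPM (median 0.658) in severe and 1.46 to 56.0 (median 6.10) in moderate HTG, and 5 of 7 severe cases were below every moderate case. The moderate values were led by case 13 at 56.0 and case 11 at 47.9 CPM, and controls ran from 0.231 to 30.7. GSS, glutathione synthetase, was at 6.98 to 10.4 CPM (median 8.56) in severe and 9.98 to 13.3 (median 11.8) in moderate HTG, with 6 of 7 severe cases below every moderate case. GPR18, a lymphocyte receptor, TNK1, a tyrosine kinase, SCG5, a neuroendocrine chaperone, IFNLR1, the lambda interferon receptor, and VWA1 also had 6 of 7 severe cases below every moderate case, with differences of −0.59, −1.13, −0.79, −0.75 and −0.47. SIMC1, LIMD1 and UPB1, a pyrimidine-degrading enzyme, had 5 of 7, with differences of −0.34, −0.32 and −0.76.

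Because case numbers follow triglycerides, from the highest in case 01 to the lowest in case 13, the number was also fitted as a trend. Again 0 genes had an adjusted p at or below 0.05 in edgeR. At an unadjusted p under 0.05, 331 genes were higher with triglycerides (2.38%) and 191 were lower (1.38%). Of the 27 red cell and heme genes 10 were among the former, and without case 01 there were 0. Of the 28 cell cycle genes 4 were among the latter, and without case 01 there were 5. Fatty acid oxidation genes had 5 of 30 higher with triglycerides, interferon genes 3 of 31 and heat shock genes 3 of 19. Without case 01 these counts were 1, 0 and 1 (edgeR). Mitochondrial genome genes had 3 of 13 lower with triglycerides, and 1 without case 01. Over all genes, the count of 522 became 280 without case 01 and 850 without case 03.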

How the data were processed

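Peripheral blood RNA of 31 Miniature Schnauzers was made into rRNA-depleted stranded total RNA libraries. The authors trimmed reads with Trimmomatic, aligned them with HISAT2 to the canFam6 assembly and counted features where both mates mapped, and the deposited table holds these raw counts for 32704 rows, 18601 with a symbol. The counter and its strand setting were not given in the sources used here. Earlier libraries of some dogs were a batch in the study's fit but are not named, and the main fit here held no batch term. In some alternatives a split at the widest gap of the mean small RNA level (388 rows with a mean count of at least 10) stood in for that batch. The high side of the split held 3 severe cases, 2 moderate cases and 5 controls. Whether it is the study's batch was not tested.

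Severity groups followed the case number. Counts of the 13 cases (16363134 to 34312116 a dog) were fitted with edgeR 4.0.16 (filterByExpr, TMM, quasi-likelihood F test, Benjamini-Hochberg, 0.05) in R 4.3.3. CPM used TMM over 31 dogs, and log2 CPM a prior count of 2. Single values had exact two-sided permutation tests over 1716 groupings. The test was checked on simulated counts. Alternatives used DESeq2 1.42.0, limma 3.58.1 and sva 3.50.0. No 2 cases of a group agreed within counting noise.

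The members and the 34 gene lists and 11 marker lists were chosen with earlier results of these data known. Genes named were the 15 smallest p in each direction, the study's 9 leading case-control genes, up to 4 members of each list by p, and genes whose groups did not overlap. List members were matched by symbol. 1 gene of the study's leading genes is not reported here. Dogs are the replicates, 1 library each, so p-values measure the spread between dogs.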

Additional observations from a re-analysis of the deposited data

Results flagged for a closer look

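Among 158 groups of 7 severe or 6 moderate values examined, 3 had a single dog far from the others by Dixon's test, where chance gives about 1 in 20. Case 03 was low among the severe cases for FAM107A, at 3.31 log2 CPM, and for DNAH11, at 0.20 log2 CPM. Case 01 was high among the severe cases in the score of fatty acid synthesis and storage genes, at 0.28.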

How the results depend on the processing

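The count of 0 genes at an adjusted p of 0.05 or below held under all 40 alternatives, 36 planned and 4 chosen after seeing the data. Among the 36, the fit without case 01 is counted under 2 names. DESeq2 with the small RNA split as covariate came nearest (lowest adjusted p = 0.0539, MMP1). The 353 genes at an unadjusted p under 0.05 became 603 with DESeq2, 596 with DESeq2 and the split, 981 without a filter on low counts, 979 on the high side of the split (3 against 2 dogs), 811 with dietary fat as a covariate (10 dogs, case 03 among the 3 left out), 666 with the split and without case 03, and 850 as a trend without case 03. In the dietary fat fit, fat and severity can hardly be separated. Leaving out each dog in turn gave 294 to 703, the highest without case 03, and the cause was not tested. The second principal component had a difference of −1.76 without case 01, turned in sign, with neither value past the test. Of 167 genes named by the rule, 0 were called under any alternative, and 117 kept their sign in every alternative in which they were tested. No paired analysis was possible because the severe and moderate cases share no replicate number and each dog gave 1 library. The coefficient of variation between dogs in the edgeR fit was 0.31, which with 7 dogs against 6 limits what can be called.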
